A study of Homo sapiens with 17 samples.

Results

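The genes described here encode subunits of Polycomb repressive complex 1 (PRC1), measured in NKYS cells, an established human NK/T-cell lymphoma line. Of 10 genes named for this account (PCGF1, PCGF2, PCGF3, PCGF5, PCGF6, BMI1, RING1, RNF2, RYBP and CBX7), 8 had at least 1 probe set annotated to that symbol alone, and these 8 are followed below among 18377 genes with such a probe set. The single probe set of BMI1 is shared in the annotation with a read-through gene, and RNF2 is not listed there, so that no value is given for either. PCGF6 and RING1 had 2 probe sets each, and the one with the higher mean over all arrays stood for the gene. The list is a family chosen by function, but PCGF6 was singled out because it lay nearest of them to passing the test when EZH2 plasmids were compared with vector. In that comparison the values are therefore a description, with no test of the members.

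PRC1 is a ubiquitin ligase of chromatin. A RING1 or RNF2 subunit pairs with one of the PCGF proteins and attaches ubiquitin to histone H2A. Canonical complexes hold PCGF2 or BMI1 and a CBX protein such as CBX7, which reads the methyl mark that EZH2 in Polycomb repressive complex 2 places on histone H3. Variant complexes hold RYBP in place of CBX and are built around any PCGF protein. They help to keep developmental genes silent in lymphoid and other cells.

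The cells were kept in medium with interleukin-2, which signals through the kinase JAK3, and took up siRNA or plasmid by electroporation. One arm had 2 arrays with JAK3 siRNA and 2 with control siRNA for that knockdown. A second arm had 2 arrays with EZH2 siRNA, each tied by its title to 1 of 2 control siRNA arrays. The plasmid arrays were 2 with empty vector, 6 with full-length EZH2 and 1 with EZH2 that lacks the SET domain, the catalytic part. Full-length plasmids were wild type, Y244D or Y244A, in which a tyrosine is replaced by aspartate or by alanine. In set 1 the transfection field holds codes, which were matched to the titles of that set. Read with these codes, the field names another construct than the title for each of the 3 full-length arrays of set 2. Whether the titles of set 1 are right was not tested. The 6 were therefore pooled, and single arrays are called by title. The array titled wild type without a number was put in set 2 from its other field. Neither the tag on the transfected EZH2 nor the promoter that drove it is given in the sources used here.

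Each array gave a signal intensity, on a linear scale, for 28869 probe sets. The median per array was 60.3 to 62.5 on siRNA arrays and 64.5 to 73.0 on plasmid arrays, and the interquartile range, on the log2 scale, spanned 2.27 to 2.33 against 1.79 to 2.18. The targeted transcripts followed the labels. JAK3 fell by 1.24 on the log2 scale after its siRNA, from 324 ± 2.73 to 137 ± 0.961 (SD, n = 2 each; limma, adjusted p = 5.7e-06). EZH2 fell within its pairs by 0.69 on the log2 scale (limma, adjusted p = 0.0275). This call was lost without EZH2 control 1 or siRNA 1 (-0.50; limma, adjusted p = 0.18 and 0.182), with no filter (0.109) and with array weights (0.116). On full-length plasmid arrays EZH2 was at 803 to 2221 against 259 and 349 with vector, a log2 change of 1.85 that did not pass over all genes (limma, adjusted p = 1). Of 14 NK cell markers, 6 lay above the median of every array, among them GZMB, PRF1 and NKG7, and 5 lay below it on every array (CD2, GNLY, GZMA, CD244 and FCER1G). Of 7 T cell markers, CD3D, CD3E and CD3G lay below the median of every array and CD4 above it. All 8 measured PRC1 genes passed the filter on low signal, in the siRNA fit of 14466 genes and in the plasmid fit of 14410. Only CBX7 (41.4 to 48.6 on siRNA arrays) stayed below the array median throughout. The number of arrays limits the precision of each value, and no label tells if replicate arrays stem from separate cultures. If they do not, p-values reflect technical spread only.

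**Figure D1:**
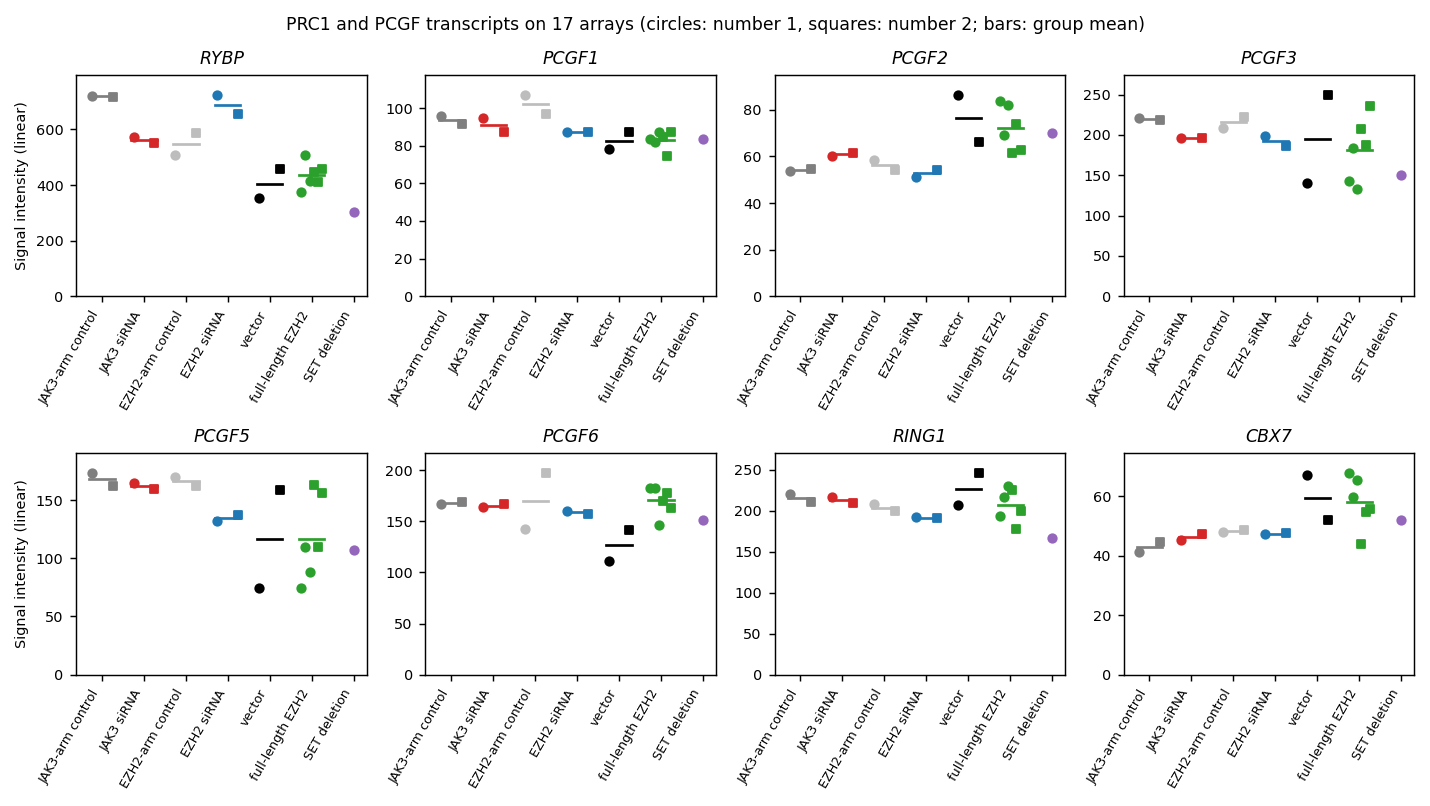
Signal intensity of the 8 measured PRC1 genes on all 17 arrays, 1 panel per gene, on linear axes that start at 0. Points are arrays, horizontal bars are group means, and circles and squares mark numbers 1 and 2. RYBP lies lower with JAK3 siRNA than with its controls and higher with EZH2 siRNA than with its controls, and the controls of both arms differ.

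RYBP bridges the catalytic RING subunits to variant complexes and stimulates ubiquitination of H2A. It was the member that differed between the knockdowns. Intensities were 572 and 552 with JAK3 siRNA against 722 and 716 in the controls of that arm. With EZH2 siRNA they were 725 and 654, and 509 and 587 in the controls of those. Both JAK3 siRNA arrays lay below their controls, both EZH2 siRNA arrays lay above theirs, and in neither arm did the groups overlap. Such separation was common, since 27.1% of 14466 genes were lower without overlap after JAK3 siRNA and 16.6% were higher without overlap after EZH2 siRNA.

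The log2 change of RYBP was -0.36 (SE 0.086) after JAK3 siRNA, 1.28-fold lower, and 0.33 (SE 0.086) after EZH2 siRNA, 1.26-fold higher. Neither passed over all genes (limma, adjusted p = 0.0766 and 0.0856). The difference of the effects did pass, at -0.69 (SE 0.121; limma, adjusted p = 0.0355), with 4 of 4 siRNA arrays on the side of their group. It was 1 of 8 members called in that comparison, in which 0.366% of all genes were called. Within EZH2 pairs RYBP was higher by 0.51 in pair 1 and 0.16 in pair 2. Values of NK cell markers were compared between the arms too, and no difference passed. After JAK3 siRNA 7 of the 12 tested were above 0 (median 0.011), and 2 fell (KLRD1 and NCAM1, named after their values were seen), in a background of 1.38% called. Both calls were lost without any one array of the JAK3 arm (limma, adjusted p = 0.11 to 0.145 for KLRD1 and 0.185 to 0.307 for NCAM1), and that of NCAM1 also with no filter (0.0649) and with a replicate block (0.076). The difference of the effects was below 0 for 10 of the 12 (median -0.16), with none called (limma). The summed intensity of all 14 NK cell markers was 9543 to 9635 with JAK3 siRNA and 9386 to 9420 in its controls. It was 11050 to 11460 with EZH2 siRNA and 7263 to 10550 in its controls. The part of the markers in the RYBP difference was not tested. Fewer cells that express a gene and less RNA per cell cannot be told apart in these bulk samples.

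The control siRNA arrays themselves differed for RYBP. Their mean was 719 ± 4.02 (SD, n = 2) in the JAK3 arm and 548 ± 55.1 (SD, n = 2) in the EZH2 arm, a gap of -0.40 on the log2 scale that is larger than either knockdown effect. JAK3 siRNA arrays (562 ± 14.5, SD, n = 2) lay within the range of the EZH2-arm controls, and EZH2 siRNA arrays (689 ± 50.2, SD, n = 2) spanned the level of the JAK3-arm controls. With all 4 control arrays pooled, the controls cancel and JAK3 siRNA arrays are set directly against EZH2 siRNA arrays. The difference of RYBP between knockdowns was then -0.29 (limma, adjusted p = 0.428), and the call was gone. It was also lost without JAK3 siRNA array 1 or 2 (limma, adjusted p = 0.151 and 0.231), without JAK3 control 1 or 2 (0.195 and 0.186), without EZH2 control 1 (0.0759) and without EZH2 siRNA 1 (0.0769).

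The promoter of RYBP is shown because this gene carries the one call among the members, that of PCGF6 because the gene was named from the plasmid arrays, and that of PCGF3 as an example of the GC-rich promoters of the family. The RefSeq table of GRCh38.p14 held promoters for all 8 genes. Each sequence is the 250 bases before the annotated start, 5′ to 3′ as the gene is read: chr3:72446624-72446873 on the minus strand for RYBP, chr10:103351141-103351390 on the minus strand for PCGF6 and chr4:705582-705831 on the plus strand for PCGF3. Capitals mark the GC box GGGCGG on either strand.
RYBP: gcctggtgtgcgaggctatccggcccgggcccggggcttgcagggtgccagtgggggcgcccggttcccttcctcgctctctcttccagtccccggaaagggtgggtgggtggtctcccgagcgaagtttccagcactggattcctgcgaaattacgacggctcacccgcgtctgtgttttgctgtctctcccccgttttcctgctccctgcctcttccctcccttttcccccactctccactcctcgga
PCGF6: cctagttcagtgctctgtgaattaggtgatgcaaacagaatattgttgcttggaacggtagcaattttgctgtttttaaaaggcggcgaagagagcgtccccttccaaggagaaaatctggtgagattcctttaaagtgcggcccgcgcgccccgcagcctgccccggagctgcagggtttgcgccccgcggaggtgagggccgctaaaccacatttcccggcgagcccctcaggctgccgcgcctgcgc
PCGF3: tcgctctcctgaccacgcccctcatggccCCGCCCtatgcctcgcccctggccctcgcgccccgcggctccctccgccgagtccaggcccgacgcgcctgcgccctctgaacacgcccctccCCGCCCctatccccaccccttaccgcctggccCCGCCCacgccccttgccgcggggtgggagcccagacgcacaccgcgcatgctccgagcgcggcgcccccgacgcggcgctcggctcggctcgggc
The GC content was 64.8% for RYBP, 58.4% for PCGF6 and 78.8% for PCGF3. The GC box, the letters of SP family factors, stood in 5 of the 8 genes (PCGF1, PCGF3, PCGF5, RING1 and CBX7) and in 42.6% of 35093 promoter windows of this length. RYBP, PCGF6 and PCGF2 held none. On both strands the STAT letters TTCNNNGAA, of interest because JAK3 acts through STAT factors, matched in none of the 8 genes and in 6.57% of all windows. The E-box CACGTG, which MGA and MAX can bind, also matched in none of the 8, against 6.34% of all. GC boxes can overlap each other. A gene counted if any of its windows matched, whereas the shares are per window, and PCGF5 has more than 1 annotated start. A match of letters is not a bound site, and no match says only that these letters are not in this window. The STAT letters were searched at the given spacing alone. The RYBP sequence printed above holds ttcctgcgaa, in which the gap between TTC and GAA is longer. Forms with such a gap were not counted in the members or in all windows.

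**Figure D2:**
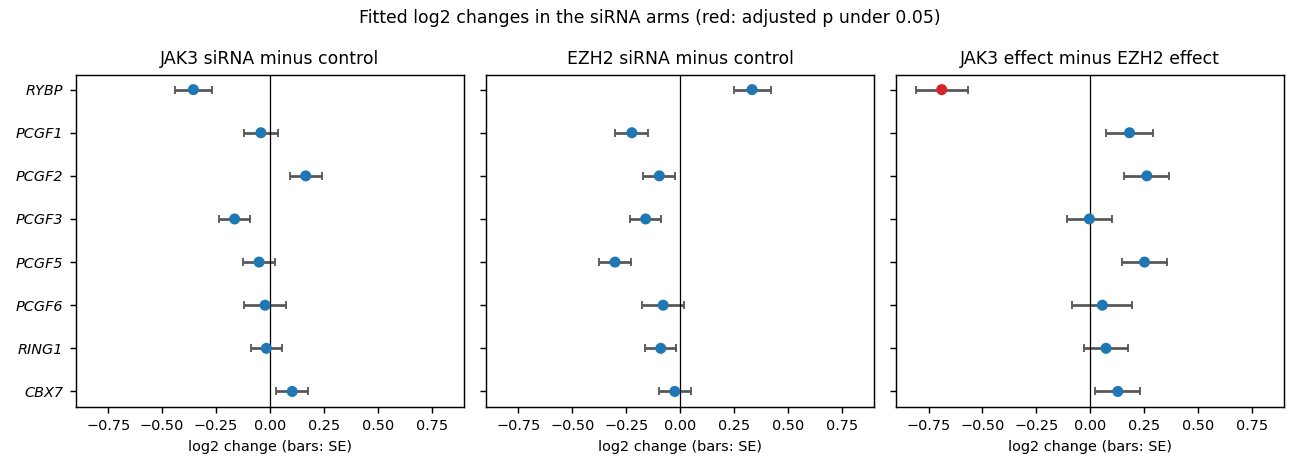
Fitted log2 change of each measured PRC1 gene after JAK3 siRNA (left), after EZH2 siRNA (middle) and the difference of the effects (right). Points are estimates, bars are standard errors, and red marks an adjusted p under 0.05, which RYBP alone reached, in the right panel.

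After JAK3 siRNA none of the 8 measured genes passed the test over all genes (limma), in a background of 1.38% of all 14466 genes called. At an unadjusted p under 0.05 there were 3 members (RYBP, PCGF2 and PCGF3), in a background of 12.4%. Groups did not overlap for PCGF2 and CBX7 on the higher side (21.2% of all genes) and for RYBP and PCGF3 on the lower side (27.1%). The median log2 change of the 8 was -0.032 against -0.01 for all genes, with 2 values above 0 and 6 below.

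PCGF2, a partner in canonical complexes, was at 60.1 and 61.7 with JAK3 siRNA and at 53.9 and 54.6 with its controls. The groups did not overlap and PCGF2 was slightly higher with the siRNA, by 0.17 on the log2 scale (SE 0.074; limma, adjusted p = 0.39). PCGF3, a core of variant complexes, lay lower, at 196 on both JAK3 siRNA arrays against 221 and 218 in the controls (log2 change -0.16, SE 0.073; limma, adjusted p = 0.389). The JAK3 siRNA values of PCGF3 were equal to every deposited digit, so that their SD of 0 does not describe the error. Repeats of this kind occurred in 23.6% of probe sets, and PCGF1 had the same value on 5 of 17 arrays.

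The remaining subunits had smaller log2 changes in the JAK3 arm. CBX7 was at 45.3 and 47.3 against 41.4 and 44.8 (log2 change 0.10, SE 0.073). PCGF1, which works in the complex with KDM2B and BCOR, was at 94.7 and 87.1 against 95.7 and 91.3, and its groups overlapped. PCGF5, PCGF6 and the ligase RING1 had log2 changes of -0.05, -0.02 and -0.02 (SE 0.073, 0.098 and 0.071). The groups of these 3 genes also overlapped. Adjusted p values of the 5 genes were between 0.64 and 0.96 (limma).

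After EZH2 siRNA again none of the 8 passed (limma), in a background of 0.94% called. At an unadjusted p under 0.05 there were 4 (PCGF5, RYBP, PCGF1 and PCGF3), against 15.6% of all genes. Their values pointed mostly one way, with 7 of 8 below 0 and a median of -0.093, while 48.2% of all genes were above 0 and the median of all was -0.004.

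PCGF5, the close paralogue of PCGF3 that also builds variant complexes, had the largest decrease in value among the members. It was at 132 and 137 with EZH2 siRNA against 170 and 162 in the paired controls. Both siRNA arrays were lower than both controls, by 0.36 in pair 1 and 0.24 in pair 2 on the log2 scale (mean change -0.30, SE 0.073; limma, adjusted p = 0.0712). With pair 1 alone, that is without EZH2 control or siRNA array 2, PCGF5 passed at -0.36 (limma, adjusted p = 0.0305 for both), as did RYBP at 0.51 (0.00651 and 0.00655). With pair 2 alone PCGF5 had -0.24 (0.369 and 0.371) and RYBP 0.16 (0.507 and 0.508). Unlike for RYBP, the controls of PCGF5 were close in both arms, at 168 ± 7.61 and 166 ± 5.52 (SD, n = 2 each).

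PCGF1 was at 87.1 and 87.5 with EZH2 siRNA and at 107 and 97.0 with its controls (log2 change -0.22, SE 0.077; limma, adjusted p = 0.177). PCGF3 was at 199 and 187 against 209 and 222 (-0.16, SE 0.073; limma, adjusted p = 0.317). RING1, the ligase subunit, was at 192 and 191 against 208 and 200 (-0.09, SE 0.071; limma, adjusted p = 0.637). For these 3 genes both siRNA arrays lay under both controls, as for 20.8% of all genes tested. PCGF2 met that criterion only by the last digit, with 54.24 against 54.25 in pair 2, and CBX7 by 47.6 against 47.9.

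PCGF6 moved in opposite directions in the pairs, with 160 against 143 in pair 1 and 158 against 197 in pair 2. The siRNA arrays were close to each other and the controls were not, and the mean change was -0.08 (SE 0.098; limma, adjusted p = 0.806).

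Differences between the knockdowns other than that of RYBP did not pass. PCGF2 had 0.26 (SE 0.105; limma, adjusted p = 0.51) and PCGF5 0.25 (SE 0.104; limma, adjusted p = 0.535), in each case the higher value after JAK3 siRNA. At an unadjusted p under 0.05 there were 3 members (RYBP, PCGF2 and PCGF5), against 8.14% of all genes. PCGF1, CBX7, RING1, PCGF6 and PCGF3 had differences of 0.18, 0.13, 0.07, 0.06 and 0.00.

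**Figure D3:**
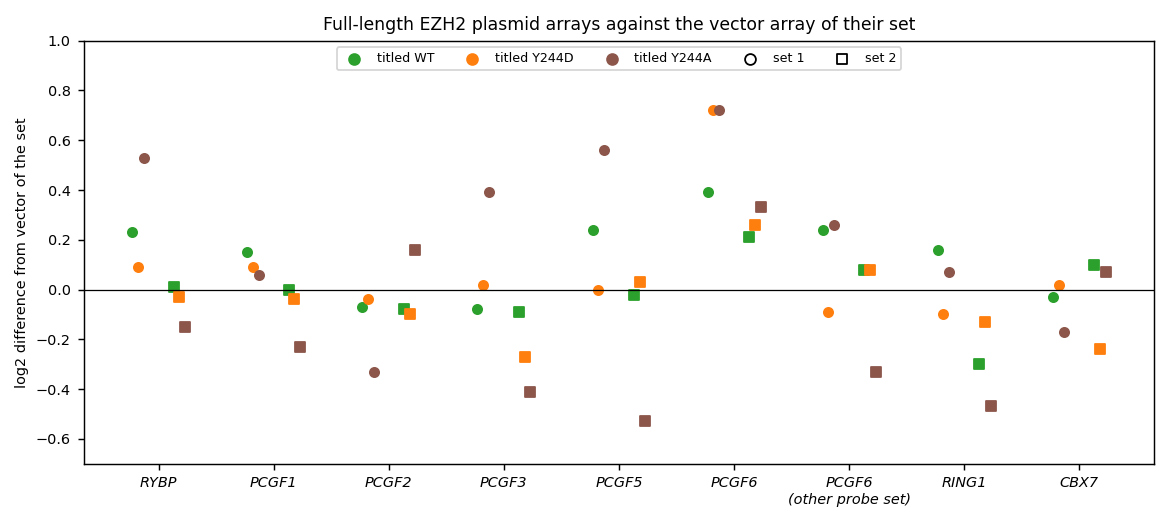
Log2 difference of each full-length EZH2 plasmid array from the vector array of its set, for the 8 genes and for the other probe set of PCGF6. Circles are set 1 and squares set 2, and colours give the construct in the title. In set 2 the transfection field, read with the codes of set 1, names other constructs. The 6 points of the higher-mean PCGF6 probe set lie above 0, from 0.21 to 0.72, while those of the other PCGF6 probe set lie on both sides.

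With EZH2 plasmids PCGF6, which builds a variant complex with MGA, MAX and L3MBTL2, had higher values than with vector. Its intensity on the 6 full-length arrays was 146 at the lowest, 174 at the median and 183 at the highest. Vector arrays were at 111 and 142, below all 6. Against the vector of its set the array titled Y244D was higher by 0.72 in set 1 and 0.26 in set 2, Y244A by 0.72 and 0.33, and wild type by 0.39 and 0.21. All 6 lay above the vector of their set, as did 220 of 14410 genes (1.53%), and 40 genes (0.278%) had all 6 above both vectors. On the lower side no member had all 6 below both vectors or below the vector of their set, against 0.486% and 2.53% of all genes. These are the values by which PCGF6 was singled out, and nothing is read from them.

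The mean change of PCGF6 was 0.44 (SE 0.152) in the fit, 1.35-fold, with 0.61 in set 1 and 0.27 in set 2. Vector arrays differed from each other by 0.35, more than the mean change in set 2. Without vector array 1 the change was 0.26 and without vector array 2 it was 0.61. The range on siRNA arrays was 143 to 197 in intensity, with the full-length arrays inside it and vector arrays, at 111 and 142, below. By percentile on the array, siRNA arrays spanned 72.8 to 79.0 and vector arrays were at 67.9 and 73.2. Full-length arrays spanned 76.2 to 83.5, so that some lay above the siRNA range. Medians and spreads differ between the kinds of array, and nothing is read from this comparison. No gene was called in this comparison (limma; 0% of 14410, with 10 genes or 0.0694% at an unadjusted p under 0.05). Even EZH2, which the plasmids carry, was not called at a log2 change of 1.85. The SE of this fit includes differences between the sets, so that the lack of a call does not show a lack of change.

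The other PCGF6 probe set did not show this difference. It had 48.8 and 73.3 with vector and 46.0 at the lowest, 58.2 at the median and 77.5 at the highest with full-length EZH2. The groups overlapped, and the change was 0.04 (SE 0.231). In the JAK3 arm this probe set had 83.5 and 72.3 against 116 and 94.7, lower without overlap, as were 27.1% of all genes tested. Its log2 change of -0.43 (SE 0.101) did not pass (limma, adjusted p = 0.0628), and the higher-mean probe set had -0.02. Which of them follows the transcript was not tested. Probe sets of RING1, by contrast, had values close to each other in each comparison, with -0.13 and -0.09 for the plasmids and -0.02 and -0.01 for JAK3 siRNA.

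With the SET deletion plasmid, on 1 array, PCGF6 was at 151, above both vectors and inside the range of the full-length arrays. The excess over vector 2 was 0.09 on the log2 scale. The other PCGF6 probe set was at 58.4, between the vectors (48.8 and 73.3). PCGF6 was singled out by its values on these vectors, so that nothing is read from its place above them. RYBP was at 303 and RING1 at 166, each below the lowest of the other 8 plasmid arrays (352 and 178). PCGF5 (107), PCGF3 (150), PCGF2 (70.1), PCGF1 (83.6) and CBX7 (52.1) lay inside the range of those. There is no replicate of this array and no test. The share of all genes that lay below every other plasmid array here was not counted, so that nothing is read from the low values of RYBP and RING1.

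The other members had changes from -0.13 (RING1) to 0.11 (RYBP) with full-length EZH2, each smaller than its SE (0.131 to 0.347). Several of these values turned in sign when 1 vector array was left out. PCGF5 had -0.50 without vector 1 and 0.59 without vector 2, PCGF3 -0.49 and 0.34, and PCGF2 0.12 and -0.27. Without each of the 8 arrays in turn RYBP had -0.08 to 0.30, CBX7 -0.22 to 0.14, PCGF1 -0.07 to 0.08 and RING1 -0.25 to 0.00. The spread between arrays of one kind was wide here. PCGF5 was at 74.7 and 159 on the vector arrays and at 74.7 to 163 on the full-length ones, and PCGF3 at 141 and 250 against 133 to 235. Vector 2 exceeded vector 1 by 1.09 for PCGF5 and by 0.83 for PCGF3, more than any change that a plasmid made against the vector of its set. Arrays titled Y244A went opposite ways in the sets. PCGF5 was 0.56 above its vector in set 1 and 0.53 below it in set 2, with 110 on both arrays, and PCGF3 was 0.39 above and 0.41 below, with 184 and 188.

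**Figure D4:**
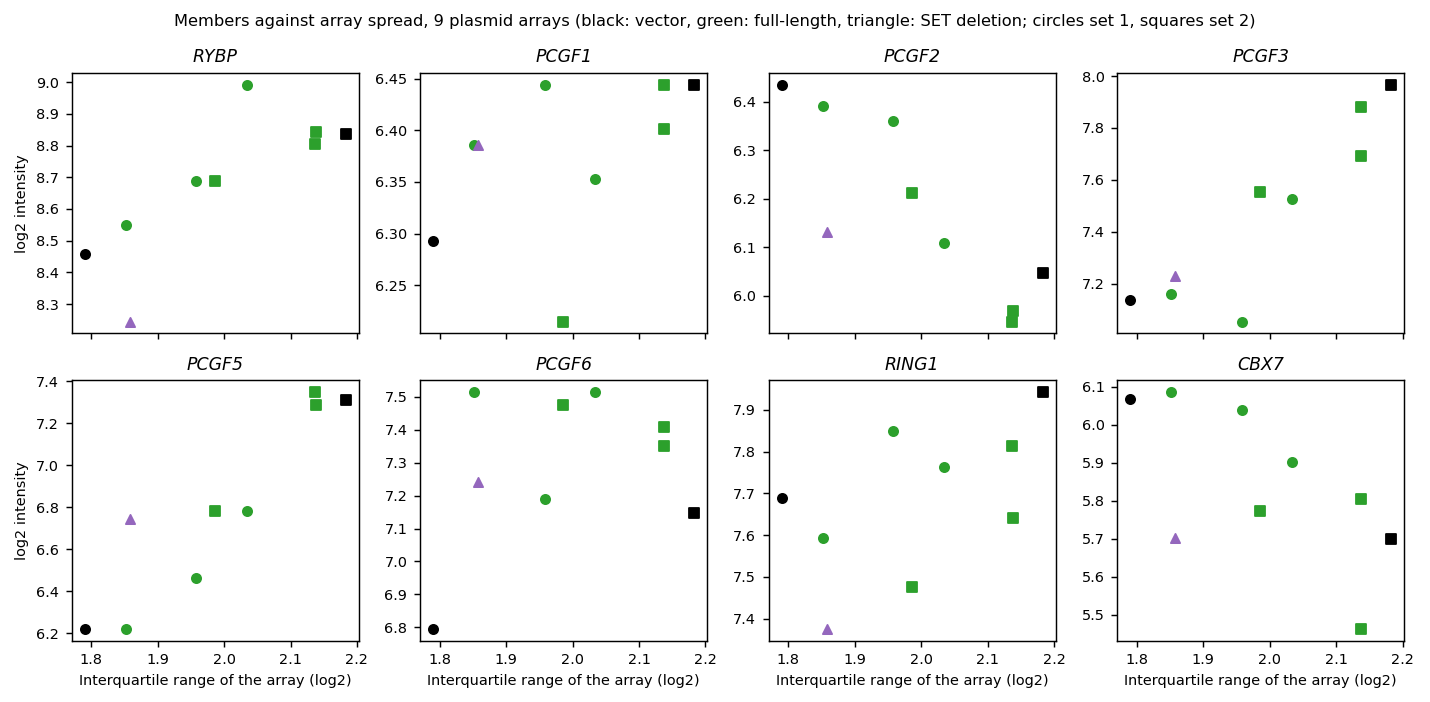
Log2 intensity of each gene against the interquartile range of log2 intensity on the same array, for the 9 plasmid arrays. Black points are vector, green full-length EZH2 and the triangle the SET deletion; PCGF3, PCGF5 and RYBP rise and PCGF2 falls along the axis.

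Levels of several members went with the spread of the whole array. The interquartile range was 1.79 on vector 1, 1.85 to 2.03 on the other set 1 arrays, 1.99 to 2.18 on set 2 and 1.86 on the SET deletion array. Over these 9 arrays PCGF5 correlated with it at r = 0.921 (rho = 0.912) and PCGF3 at r = 0.905 (rho = 0.883). RYBP followed at r = 0.794 (rho = 0.817), and PCGF2 ran the other way at r = -0.84 (rho = -0.883). Without the 2 arrays farthest from the median spread r was 0.872, 0.864, 0.774 and -0.788. For CBX7, RING1, PCGF1 and PCGF6 r was -0.652, 0.552, 0.438 and 0.326. These values are a description with no p. The spread went partly with the plasmid set, and arrays of a set may not be independent. For arrays titled Y244A the order was reversed, with 2.03 in set 1 and 1.99 in set 2. Relations of this size were common, since r lay beyond 0.8 in either direction for 56.0% of 14410 genes and for 3 of the 8 members. With 4 arrays each, the plasmid sets are too small to repeat this within a set.

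The genes whose pattern was most like that of PCGF6 over all 17 arrays, each centred on its median, were ARPC3 (r = 0.85), LAPTM4A (0.84) and TRAPPC14 (0.837), out of 14433 genes. The arrays share the differences in spread just given, and these r values are a description. Within the 8 siRNA arrays their r was 0.686, 0.875 and 0.359, and within the 9 plasmid arrays 0.85, 0.798 and 0.854.

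Of 35 other genes of PRC1 complexes and the enzymes that remove their mark, 27 were tested. None passed after JAK3 siRNA (median -0.035, 11 above 0 and 16 below), and ASXL1, a cofactor of the enzyme that removes ubiquitin from H2A, came nearest, at 0.34 (SE 0.075; limma, adjusted p = 0.0512). HDAC2, a deacetylase, had -0.22 and E2F6, a repressor in the PCGF6 complex, -0.21. After EZH2 siRNA 7 were above 0 and 20 below, with a median of -0.068. TFDP1, the dimer partner of E2F factors, fell (-0.35, SE 0.071; limma, adjusted p = 0.0449), as 1 of 27 genes in a background of 0.94% called. The call was lost without EZH2 control 1 or siRNA 1 (-0.28; limma, adjusted p = 0.315 and 0.317) and after quantile normalization (-0.30, 0.0793). It was also lost, at -0.35, with no filter (0.12), with array weights (0.223), without the replicate block (0.0654) and in a fit of the 4 EZH2 arm arrays (0.108).

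The difference between the knockdowns passed for none of the 27, with ASXL1 at 0.51 (SE 0.106; limma, adjusted p = 0.0801), TFDP1 at 0.30 and KDM2B, which brings PCGF1 complexes to CpG islands, at 0.23. With EZH2 plasmids 18 were above 0 and 9 below, and YAF2, the paralogue of RYBP, had 0.26 (SE 0.204), CSNK2B 0.22 and HDAC1 0.19, none of which passed. Of 23 genes reported as silenced by Polycomb, such as HOX genes and CDKN2A, 16 were tested and none passed in any of the 4 comparisons (limma). In each knockdown 12 of the 16 were above 0, with medians of 0.021 after JAK3 siRNA and 0.036 after EZH2 siRNA, while 45.7% and 48.2% of all genes were above 0. With EZH2 plasmids 6 were above 0 and 10 below (median -0.018), against 53.6% of all genes above 0, and for the difference between knockdowns 8 were above 0 and 8 below.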

How the data were processed

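The authors deposited a single table of linear signal intensity per probe set and array. Background correction, normalization, probe summary and genome build are not given in the sources used here. Log2 of the deposited values was analysed. RNA was labelled from cells transfected with siRNA or plasmid, per the labels' protocols. Groups come from the titles. Platform annotation gave 1 symbol to 19310 probe sets, several to 1752 and none to 7807; RefSeq identifiers changed 0 of those symbols. A gene entered a fit if its mean there reached the 30th percentile of probe set means; JAK3 and EZH2 always entered. Limma 3.58.1 in R 4.3.3 (lmFit, eBayes; two-sided; Benjamini-Hochberg over all genes tested; threshold 0.05) fitted the 8 siRNA arrays together, with the EZH2 pair as a block (3 residual degrees of freedom), and the 8 vector and full-length plasmid arrays without a block (6). Each gene's spread was thus shared by both siRNA arms.

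Same-numbered arrays deviated together with r = -0.086 in the EZH2 arm, where titles tie the pairs, and r = 0.151 in the JAK3 arm. Between plasmid groups r was 0.85 to 0.919 among vector, wild type and Y244D, and 0.008 to 0.193 for each of these with Y244A. Set numbers were not taken as pairs in the main plasmid fit, so that its SE includes differences between the sets. A fit with the set as a block was an alternative. Named genes were the 8 members, JAK3 and EZH2. From the list of other PRC1 genes the called ones were named, or, with none called, 3 genes lowest in unadjusted p, as values. The 3 genes most like PCGF6 were also named. Members and lists were chosen with earlier results of these data known. Fits were tested on simulated data. Alternatives were other normalizations, filters, probe set summaries, variance models, array weights, blocks and sets of arrays, and leaving out each array. A planned comparison of protein sequences was not run. Figures used matplotlib 3.10.9 in Python 3.11.15.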

Additional observations from a re-analysis of the deposited data

Results flagged for a closer look

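RYBP is listed because its effects in the siRNA arms differed by -0.69 on the log2 scale (limma, adjusted p = 0.0355), with lower values after JAK3 siRNA and higher ones after EZH2 siRNA. The controls of the arms differed by -0.40 for this gene. Pooling them left -0.29, which sets JAK3 siRNA arrays directly against EZH2 siRNA arrays. The part of the controls in the result was not tested.

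PCGF2 and CBX7 are listed because the JAK3 siRNA arrays were above both controls and the EZH2 siRNA arrays were below their own in both pairs. Their differences between the arms were 0.26 and 0.13, and the test of the difference did not pass for either (limma, adjusted p = 0.51 and 0.845). In the EZH2 arm the gap of PCGF2 in pair 2 was 54.24 against 54.25. No member had an array standing apart among the 6 full-length plasmid arrays.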

How the results depend on the processing

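After JAK3 siRNA the count of called members rose from 0 to 1 (RYBP, -0.36) with trend and robust fitting (limma, adjusted p = 0.0448), with array weights (0.00689) and in a fit of only the 4 JAK3 arm arrays (0.0113); without each array in turn it was 0. After EZH2 siRNA it was 0 to 2 without each array. The RYBP difference of -0.69 between knockdowns lost its call, so that 0 members were left, after quantile normalization (-0.69, adjusted p = 0.0597), array median centring (-0.67, 0.0691), with no filter (-0.69, 0.195), with the replicate block in both arms (-0.69, 0.136) and with 4 pooled controls (-0.29, 0.428), an alternative chosen after seeing the data. Leaving out each array gave -0.87 to -0.51, with 0 or 1 member called and adjusted p from 0.00325 to 0.231. In such a fit the lone array of a group is assumed to vary like the others. The direction was kept in all 17 alternatives. With the plasmid set as a replicate block PCGF6 had 0.44, as without it, and no block added a called member. Calls over all genes moved further. After JAK3 siRNA 200 became 94 with no filter, 104 with a block in that arm, 699 with array weights, 523 in the fit of 4 arrays, 52 with pooled controls and 33 to 45 without each array. After EZH2 siRNA 136 became 56 with quantile normalization (30 higher and 26 lower), 31 higher and 161 lower with centring, 0 with array weights (1255 at an unadjusted p under 0.05), 0 with no filter (2511), 230 with trend and robust fitting, 20 without the block, 217 in the fit of 4 arrays, 8 with pooled controls and 0 to 1511 without each array. For the difference 53 became 15 with no filter, 19 with both blocks, 19 higher and 19 lower with centring, and 14 to 323 without each array. Plasmid calls stayed at 0 in all 18 alternatives. PCGF6 had 0.24 with the mean of its probe sets. Signals of PCGF2 and CBX7 near or under the array median limit their small differences.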
